A study of Drosophila melanogaster with 15 samples.

Results

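Larvae mutant for Dif were compared with larvae mutant for dorsal, both sampled after injection of Escherichia coli. The comparison used 6 of the 15 arrays of the series, 3 for each mutant, chosen by the source names that call them Dif or Dorsal and number them 1 to 3, and all 13966 probe sets that are not Affymetrix controls. Larvae of the tested genotype carried the allele written Dif1 and were injected with E. coli, and those they were set against carried the allele written Dorsal1 and were injected with E. coli as well. Wild type larvae are given beside them, with 3 arrays after E. coli and 3 after phosphate buffered saline (PBS), and 3 arrays of Relish E20 mutants with E. coli complete the series. Each array held RNA from 1 pool of 20 whole larvae of the third instar, harvested 2 h after injection of about 0.1 microliter.

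The labels limit what the groups can show. All 9 mutant arrays received E. coli by their treatment text, but their titles hold the letters ctr, which the titles of the PBS arrays share. The treatment text of the Dif arrays speaks of control flies where that of the dorsal arrays speaks of larvae. No mutant larvae injected with PBS were analysed here, so a difference between the mutants cannot be told apart from one between the stocks without bacteria. Whether pools of 1 mutant were raised as separate cultures is not given, so the p-values rest on the spread of these pools alone, and that spread may be technical.

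Dif and dorsal are the NF-kappaB factors of the Toll pathway. The inhibitor cactus holds both in the cytoplasm until the cytokine spätzle activates the receptor Toll, and both then enter the nucleus. In the embryo dorsal patterns the dorsoventral axis, and in immune tissues the pathway is known for the response to fungi and many Gram-positive bacteria. In larvae of Drosophila either factor has been described as able to drive Toll targets, whereas the Imd pathway, which works through Relish, answers Gram-negative bacteria such as E. coli.

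The mutants differed in metabolic, detoxification, gut and chaperone genes and in a few secreted peptides listed as Toll-responsive, while the measured antimicrobial peptide genes overlapped between them. Signals were compared as log2(signal + 80), a scale that understates the change of low signals, and a probe set was called when the limma test gave an adjusted p under 0.05. Of 11427 probe sets tested, 592 were called (5.18%), with 267 higher (2.34%) and 325 lower (2.84%) in Dif mutants than in dorsal mutants. Without adjustment, 2357 of the 11427 had a limma p under 0.05. Counted once per gene, 506 of 9190 were called (5.51%), of which 218 were higher (2.37%) and 288 lower (3.13%). The 3 Dif and 3 dorsal arrays did not overlap at 24.4% of all probe sets and at 585 of the 592 called. The median log2 difference over all probe sets tested was 0.03, the median size among those called was 1.37, and 90 were called with a log2 difference beyond 2 in size. By the same test 306 probe sets were called between Dif mutants and wild type with E. coli (2.68%) and 402 between dorsal mutants and that wild type (3.52%). These comparisons share arrays with the one reported here.

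**Figure D1:**
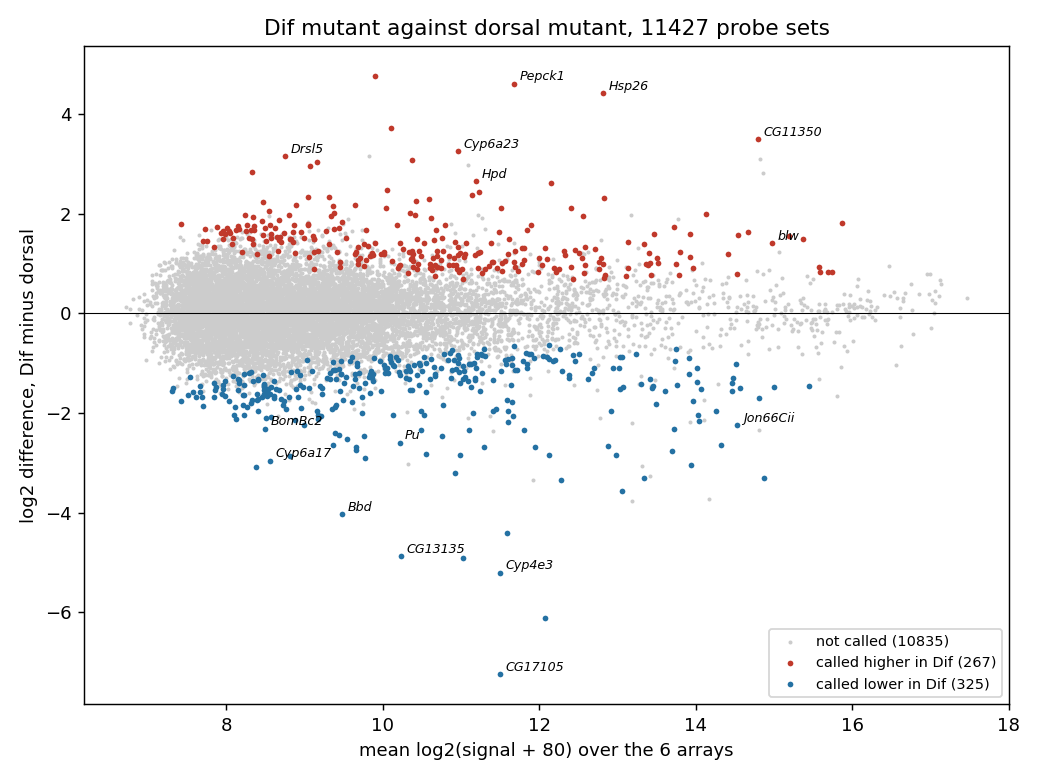
Log2 difference of Dif mutants minus dorsal mutants (vertical axis) against the mean log2(signal + 80) over the 6 arrays (horizontal axis), with 1 point for each of 11427 probe sets. Red points are the 267 called higher in Dif mutants, blue points the 325 called lower and grey points those not called, and genes described in the text are named.

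The number of calls rested on single arrays. It was 228 without Dif replicate 2, 272 without dorsal replicate 1, 323 without dorsal replicate 2 and 352 without Dif replicate 3, against 604 without Dif replicate 1 and 565 without dorsal replicate 3. Below, a call is described as kept where it remained in all 6 of these fits. On log2 values, Dif arrays correlated with one another at 0.884 to 0.900 and dorsal arrays at 0.881 to 0.932, while correlations between the mutants ran between 0.811 and 0.873. Dorsal replicates 1 and 2, which the titles number 1a and 1b, gave the 0.932. When arrays that share a title number were averaged first, 152 probe sets were called.

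A pair of arrays stood apart in genes that mark the end of larval life. The summed signal of 12 genes listed as salivary glue was 396261, 67173.6 and 179652 in Dif mutants, against 343153, 390380 and 646850 in dorsal mutants. The list holds Sgs glue genes, which larvae switch on before pupariation, and also Eig71E genes and ng3. Fbp1, a receptor for larval serum proteins that ecdysone induces, had 48996.5, 350.7 and 6023.2 signal units in Dif mutants and 49692.8, 49745.2 and 119973 in dorsal mutants. Dif replicate 2 was therefore the lowest and dorsal replicate 3 the highest of the 6 in both measures. The limma test called 0 of the 12 genes of the glue list, with 0 at an unadjusted p under 0.05, and their median log2 difference was -1.37. Among 17 genes of the ecdysone response only br (broad, an early ecdysone factor) was called, at -1.60 (SE 0.36, adjusted p = 0.0155), and its other probe sets gave -0.11 and -0.25. The call of br remained in 4 of the 6 fits with 1 array left out, with an adjusted p up to 0.056 (Dif replicate 3). Without both Dif replicate 2 and dorsal replicate 3 it was lost (0.099). Whether the stage of these pools had a part in the results below was not tested. The fit without both arrays, an alternative added after the data were seen, called 335 probe sets. Of these, 244 were among the 592 called with all arrays. These counts cannot separate stage from the smaller number of arrays.

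The transcripts of the mutated genes did not separate the mutants. The Dif probe set (143643_at) had 210.0, 213.8 and 204.3 signal units in Dif mutants and 210.1, 155.8 and 98.5 in dorsal mutants. The dl probe set (143125_at), for dorsal, had 193.4, 373.6 and 257.9 in Dif mutants and 195.8, 180.1 and 414.0 in dorsal mutants. Neither was called, with log2 differences of 0.33 (SE 0.41, adjusted p = 0.704) for Dif and 0.08 (SE 0.44, adjusted p = 0.939) for dl, so these probe sets leave both genotypes unchecked. Rel, which encodes Relish, had 1091.5, 1191.2 and 1272.7 in Dif mutants and 1186.9, 373.5 and 1306.5 in dorsal mutants, a log2 difference of 0.45 (SE 0.34, adjusted p = 0.494). Both mutants lay below wild type with E. coli in Rel (3802 ± 1028, SD, n = 3).

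The antimicrobial peptide genes that could be tested did not separate the mutants. Of 14 listed genes, 6 could be tested under 1 gene name, and limma called 0 of the 6 where 5.51% of all genes were called, with 0 also at an unadjusted p under 0.05. Their log2 differences ran from -0.04 to 0.34 with a median of 0.17, and every gene overlapped between the mutants. The other listed genes could not be tested under 1 gene name, so these values do not cover antimicrobial peptides as a class. DptB, a diptericin, had 1139.1, 4657.9 and 2649.2 signal units in Dif mutants and 4045.5, 1180.2 and 2242.3 in dorsal mutants, against 14708 ± 6127 in wild type with E. coli and 1248.7 ± 457.3 with PBS (SD, n = 3 each). Its difference of 0.13 had a 95% confidence interval from -0.83 to 1.08. The cecropin CecB had 85.1, 489.8 and 184.4 in Dif mutants and 364.0, 78.8 and 247.2 in dorsal mutants, with an interval from -1.01 to 1.08. In both genes each mutant stood nearer to wild type with PBS than to wild type with E. coli. Drosomycin (Drs), the classical Toll target, had 23570.5, 16081.5 and 7637.5 in Dif mutants and 11300.5, 9301.8 and 17894.5 in dorsal mutants, with an interval from -0.68 to 1.10. Metchnikowin (Mtk) had the widest interval, from -0.88 to 1.55, so differences of that size between the mutants were not detectable with 3 arrays each. The intervals of AttD (-0.60 to 1.14) and Def (-1.09 to 1.02) also spanned 0.

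Bomanins, short secreted peptides that the Toll pathway induces and that protect adult flies from infection, were lower in Dif mutants at 3 genes. BomBc2 (147433_at) had 84.6, 99.1 and 62.8 signal units in Dif mutants, near the pseudocount, against 907.2, 417.3 and 975.4 in dorsal mutants and 1082.2 ± 174.0 in wild type with E. coli (SD, n = 3). No Dif array reached the lowest dorsal array, and the log2 difference was -2.31 (SE 0.33, adjusted p = 5.78e-04). BomS5 (151209_at) had 1740.7, 1091.8 and 608.9 in Dif mutants and 6691.5, 2326.5 and 5653.5 in dorsal mutants, a difference of -2.0 (SE 0.39, adjusted p = 0.00695). BomT2 (151210_at) had 432.4, 184.2 and 16.3 in Dif mutants and 984.3, 855.2 and 1292.5 in dorsal mutants, a difference of -2.24 (SE 0.58, adjusted p = 0.0344). BomBc2 and BomS5 kept their calls, although BomS5 missed the threshold without both Dif replicate 2 and dorsal replicate 3 (adjusted p = 0.0521). BomT2 kept its call in 1 of the 6 fits and had an adjusted p of 0.14 without Dif replicate 3.

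Not every Bomanin was called. BomS2 had 478.7, 318.8 and 57.7 signal units in Dif mutants and 1019.0, 614.0 and 977.5 in dorsal mutants, with no overlap, and its difference of -1.57 missed the threshold (adjusted p = 0.0606). BomBc3 differed by -1.81 with overlapping arrays, and dorsal replicate 2 had 94.1 where the other dorsal arrays had 1339.7 and 1253.6. Log2 differences were -1.07 for BomT3, -0.96 for BomS6 and -0.07 for BomS4, none of them called. Bbd (bombardier, 147547_at), which adult flies need for short Bomanin peptides, differed most among these genes. It had 237.0, 13.8 and 105.1 in Dif mutants, against 2787.3, 1730.4 and 4515.1 in dorsal mutants and 4375 ± 2341 in wild type with E. coli. Every Dif array lay far below every dorsal array, and the difference of -4.03 (SE 0.44, adjusted p = 6.74e-05) was kept.

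A drosomycin-like gene went the other way. Drsl5 (148103_at) had 667.6, 889.0 and 2861.9 signal units in Dif mutants, against 98.9, 43.9 and 55.3 in dorsal mutants and 231.0 ± 80.5 in wild type with E. coli. Its difference of 3.16 (SE 0.50, adjusted p = 0.0014) was kept. Drsl6 had 504.2, 241.7 and 145.3 in Dif mutants and 53.6, 57.2 and 92.6 in dorsal mutants, with no overlap but no call (1.25, adjusted p = 0.0809). Over the 22 genes listed as Toll-responsive secreted peptides, 10 were tested, with 3 called lower and 1 higher (40%, beside 5.51% of all genes). Whether each of them, Drsl5 and Drsl6 included, responds to Toll in these larvae was not tested. The median of the 10 was -1.32. Set against wild type with E. coli, an analysis that shares arrays with the one here, BomBc2 stood at -2.84 in Dif mutants and -0.52 in dorsal mutants. In the same analysis BomS5 stood at -2.87 in Dif mutants and -0.87 in dorsal mutants, and Bbd at -4.53 in Dif mutants and -0.51 in dorsal mutants. Drsl5 stood at 2.08 in Dif mutants and -1.07 in dorsal mutants. The low values of the 3 called Bomanins were not particular to Dif mutants. Relish mutants had means of 83.9 signal units in BomBc2, 723.6 in BomS5 and 173.9 in BomT2. The means of wild type with PBS were 464.5, 2355.4 and 509.9, above the Dif means in each gene.

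**Figure D2:**
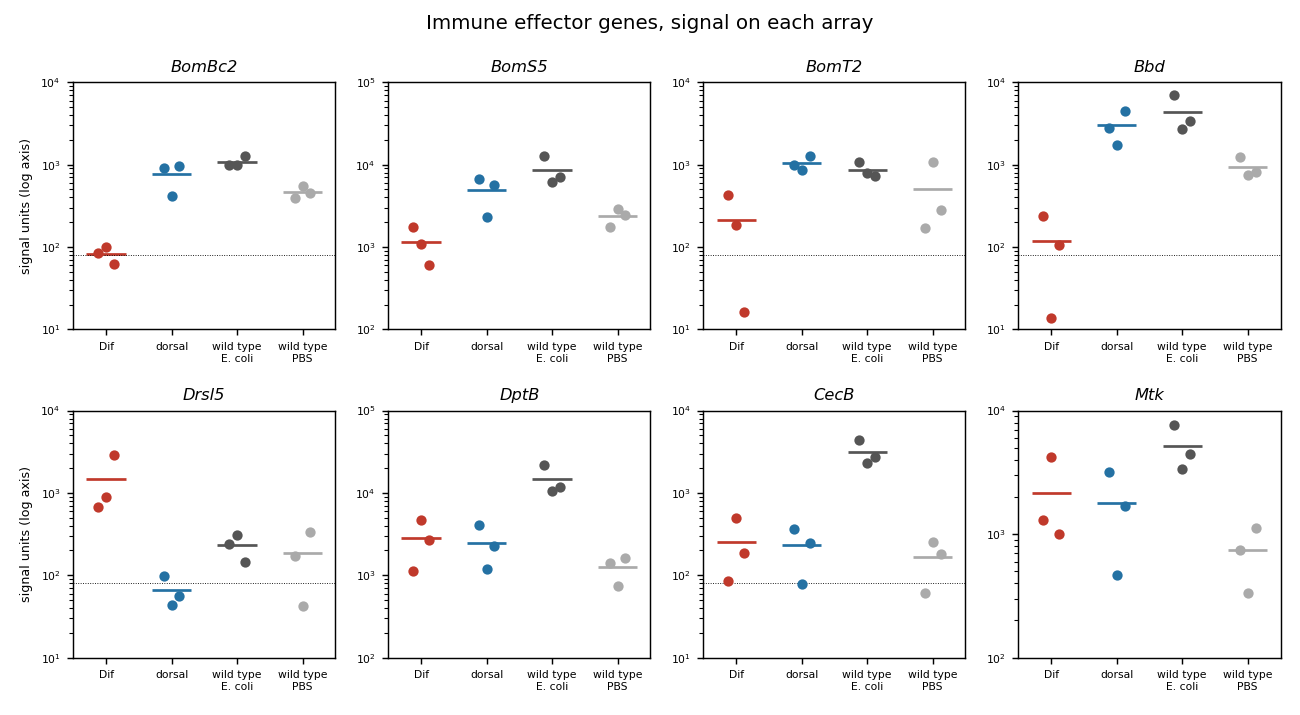
Signal of 8 immune effector genes on each array (vertical log axis, signal units), with the groups Dif mutant, dorsal mutant, wild type with E. coli and wild type with PBS from left to right. Points are arrays, bars are means of 3 arrays and the dotted line is the pseudocount of 80; BomBc2, BomS5, BomT2 and Bbd are lower and Drsl5 higher in Dif mutants, while DptB, CecB and Mtk overlap between the mutants.

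Receptors and signal carriers upstream of these peptides gave no calls. The limma test called 0 of 9 microbial recognition proteins, 0 of 21 Toll pathway genes, 0 of 14 Imd pathway genes and 0 of 11 melanization and clotting genes. At an unadjusted p under 0.05 there were 2 recognition, 7 Toll pathway, 2 Imd pathway and 0 melanization genes. Over all probe sets tested, 2357 of 11427 had such a p. Toll pathway genes had a median of -0.36, with every Dif array below every dorsal array at 7 and above at 1, where 24.6% of all genes did not overlap. The protease gene spirit, which acts upstream of spätzle, had 830.5, 247.5 and 216.2 signal units in Dif mutants and 1895.4, 982.5 and 985.8 in dorsal mutants (-1.55, adjusted p = 0.0814). The adaptor gene Traf6 stood at -1.25 (adjusted p = 0.101) and the Toll family receptor 18w at -1.11 (adjusted p = 0.0809). In the Imd pathway the caspase gene Dredd had 133.4, 112.8 and 573.6 in Dif mutants and 1221.0, 769.0 and 955.0 in dorsal mutants (-1.80, adjusted p = 0.0829). Among recognition proteins the amidase gene PGRP-SC2 differed most, at -1.33 (adjusted p = 0.101), with overlapping arrays. An additional probe set of yellow-f2, of the yellow family, was called at 1.46, but the probe set that represents the gene gave 0.49 (adjusted p = 0.419).

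Pu, the GTP cyclohydrolase that makes the pterin cofactor of tyrosine hydroxylase, was lower in Dif mutants. It had 488.0, 402.5 and 332.0 signal units in Dif mutants, against 1799.4, 3072.0 and 4127.0 in dorsal mutants and 522.4 ± 52.1 in wild type with E. coli (SD, n = 3). The dorsal arrays thus stood above both other groups, and the difference of -2.60 (SE 0.29, adjusted p = 8.89e-05) was kept. The other 4 catecholamine and tanning enzymes tested were not called, among them ple (tyrosine hydroxylase) at 1.04 and Ddc (dopa decarboxylase) at -0.77.

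Hemocyte markers moved in both directions, with 2 of 17 called higher and 2 lower (23.5%, beside 5.51% of all genes). Hml (hemolectin, a clotting factor of plasmatocytes) had 1398.4, 1378.3 and 1333.8 signal units in Dif mutants, against 3268.5, 3294.8 and 2291.9 in dorsal mutants and 1176 ± 228 in wild type with E. coli, a difference of -1.05 (SE 0.22, adjusted p = 0.0104). drpr, an engulfment receptor, was also lower, at -1.10 (adjusted p = 0.0121). Col4a1, a type IV collagen, was higher at 1.26 (adjusted p = 0.0205), with 5875.0, 10329.7 and 7827.7 in Dif mutants and 2733.9, 2850.6 and 4229.9 in dorsal mutants. Ppn (papilin, a matrix protein) was higher at 0.88 (adjusted p = 0.0229), but its other probe set gave 0.11. None of these 4 calls was kept: the highest adjusted p with 1 array left out was 0.054 for Hml (dorsal replicate 1), 0.071 for drpr (Dif replicate 2), and 0.10 for Col4a1 (Dif replicate 2) and for Ppn (dorsal replicate 1). The phagocytosis receptor NimC1 had 445.3, 483.3 and 379.3 in Dif mutants and 18, 24.1 and 297.2 in dorsal mutants, with no overlap but no call (1.71, adjusted p = 0.0620). The summed signal of the 17 genes overlapped, at 33094.9, 39665.2 and 34010.3 in Dif mutants and 31094.5, 33517.4 and 36930.2 in dorsal mutants. In whole larvae fewer cells of a type and less RNA per cell cannot be told apart.

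In wound and cytokine signalling, 1 of 14 JNK and wound response genes and 1 of 4 JAK-STAT genes were called. The share called among all genes was 5.51%. Pvr, the receptor for growth factors of the PDGF and VEGF family, had 927.2, 497.9 and 944.7 signal units in Dif mutants and 1977.3, 1816.2 and 1623.4 in dorsal mutants (-1.16, SE 0.26, adjusted p = 0.0163). Stat92E, the transcription factor of the JAK-STAT pathway, was lower at -1.10 (adjusted p = 0.0149), while its other probe set gave -0.24. Both calls were lost with 1 array left out, at adjusted p-values up to 0.087 for Pvr (Dif replicate 2) and 0.064 for Stat92E (dorsal replicate 1). puc, the JNK phosphatase, stood at -1.34 without a call (adjusted p = 0.0602).

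Pepck1, the phosphoenolpyruvate carboxykinase at the entry to gluconeogenesis, had the largest difference among called genes that were higher in Dif mutants. Its probe set (143299_at) had 12464.6, 15287.1 and 21897.3 signal units in Dif mutants, against 314.6, 66.5 and 4921.4 in dorsal mutants and 10603 ± 2934 in wild type with E. coli (SD, n = 3). Dif mutants overlapped with wild type here, and the dorsal arrays lay below both. The difference of 4.61 (SE 0.78, adjusted p = 0.00249) was kept and ranged from 3.53 to 6.07 with 1 array left out, the highest without dorsal replicate 3. Of 19 glycolysis and gluconeogenesis genes, 3 were called, all higher, where 2.37% of all genes were called higher. Pgk (phosphoglycerate kinase) had 7216.7, 7567.5 and 7506.4 in Dif mutants and 3477.1, 3561.3 and 4623.1 in dorsal mutants (0.93, adjusted p = 0.0131). Ald1 (aldolase) had 76948.7, 73212.1 and 62575.0 in Dif mutants and 39219.4, 38609.2 and 40475.7 in dorsal mutants (0.84, adjusted p = 0.0396). Leaving out 1 array ended the call of Pgk (up to 0.061, dorsal replicate 1) and of Ald1 (up to 0.13, Dif replicate 2). Eno, Gapdh1 and fbp, at 0.31, 0.16 and 0.29, were not called.

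Mitochondrial genes were called in 1 direction. Of 63 respiratory chain genes, 5 were called higher in Dif mutants (7.94%, where 2.37% of all genes were called higher) and 0 lower. Every Dif array lay above every dorsal array in 24 of the genes and below in 1, where 24.6% of all genes did not overlap, and the median was 0.40 beside 0.02 over all genes. blw, the alpha subunit of ATP synthase, had 43561.4, 60127.5 and 55085.9 signal units in Dif mutants, against 20466.5, 18880.3 and 19817.1 in dorsal mutants and 42369.5 ± 4559 in wild type with E. coli. ND-75, a subunit of complex I, had 5223.9, 6321.9 and 5151.2 in Dif mutants and 1966.6, 2298.2 and 2340.1 in dorsal mutants. In both genes the dorsal arrays lay below the wild type and Dif arrays, and the differences were 1.41 (SE 0.21, adjusted p = 7.64e-04) for blw and 1.30 (SE 0.22, adjusted p = 0.00192) for ND-75. ND-51, a further subunit of complex I, differed by 1.26 (adjusted p = 0.00398), Cyt-c1 of complex III by 0.99 (adjusted p = 0.0490) and the coupling factor ATPsynCF6 by 0.77 (adjusted p = 0.0471). The calls of blw, ND-75 and ND-51 were kept, so that 3 to 5 genes were called with 1 array left out and 3 without both Dif replicate 2 and dorsal replicate 3. Those of Cyt-c1 (up to 0.18, Dif replicate 2) and ATPsynCF6 (up to 0.13, dorsal replicate 3) were lost.

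Other mitochondrial enzymes and muscle genes stood beside these values. In a list of 13 tricarboxylic acid cycle genes that was added after the data were seen, 3 were called higher and 0 lower. The list median was 0.61, and 2.37% of all genes were called higher. Scsalpha1, the alpha subunit of succinyl-CoA synthetase, had 3199.5, 3893.4 and 3187.2 signal units in Dif mutants and 1376.6, 1353.7 and 1661.5 in dorsal mutants (1.18, adjusted p = 0.00122, kept). The other called genes were muc, of the pyruvate dehydrogenase complex, at 1.5 and Idh3a, of isocitrate dehydrogenase, at 0.90, whose calls were lost without Dif replicate 2 (0.058) and dorsal replicate 2 (0.12). Of 18 muscle contractile genes, 3 were called higher and 0 lower, where 2.37% of all genes were called higher. These were Zasp52 (1.13), Act79B (1.01) and Act87E (0.84), none of them kept. Without dorsal replicate 2 their adjusted p-values were 0.12, 0.09 and 0.12. The summed signal of the 18 muscle genes was 500890, 453334 and 443327 in Dif mutants and 388580, 369222 and 410173 in dorsal mutants, with no overlap, and its part in the mitochondrial values was not tested. The limma test called 0 of 36 cytoplasmic ribosomal protein genes (1 at an unadjusted p under 0.05, median -0.09), although RpLP0 did not overlap (0.61, adjusted p = 0.0600).

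In a list of 9 genes of aromatic amino acid breakdown, also added after the data were seen, 4 were called higher in Dif mutants and 0 lower. The list median was 0.96, and 2.37% of all genes were called higher. All 4 called genes encode enzymes of tyrosine breakdown. Not every listed gene of tyrosine breakdown was called. GstZ1 (0.96, adjusted p = 0.0526) and GstZ2 (0.86, adjusted p = 0.0684) missed the threshold, although their arrays did not overlap. The list also holds genes of tryptophan breakdown and pigment transport, among them cn (-0.21), KFase (0.09) and st (0.14), which were not called. Hpd, which converts hydroxyphenylpyruvate to homogentisate, had 4956.0, 6435.4 and 6097.7 signal units in Dif mutants, against 980.7, 1466.1 and 412.8 in dorsal mutants and 2673 ± 1086 in wild type with E. coli (SD, n = 3). Every Dif array lay above the wild type mean and every dorsal array below it, and the difference was 2.66 (SE 0.36, adjusted p = 4.08e-04). The next enzyme, hgo (homogentisate dioxygenase), had 2702.2, 3515.6 and 3401.2 in Dif mutants and 1159.9, 1200.9 and 472.3 in dorsal mutants (1.77, adjusted p = 0.00148). Faa (fumarylacetoacetase), at the end of the path, had 885.6, 1885.9 and 1187.8 in Dif mutants and 341.1, 213.2 and 215.0 in dorsal mutants (2.02, adjusted p = 0.00227). Tat (tyrosine aminotransferase), at its start, differed by 1.19 (adjusted p = 0.00563). All 4 calls were kept.

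Lipid genes were called in both directions, with 3 of 21 lower and 1 higher (19%, beside 5.51% of all genes). FASN1, the fatty acid synthase, had 133.9, 389.3 and 183.9 signal units in Dif mutants, against 1793.1, 2498.5 and 790.0 in dorsal mutants and 2647 ± 1270 in wild type with E. coli. Its difference of -2.44 (SE 0.44, adjusted p = 0.00375) was kept. The lipase gene Lip3 had 810.8, 725.0 and 450.4 in Dif mutants and 3251.6, 2421.8 and 3117.4 in dorsal mutants (-2.04, adjusted p = 0.0201). Here the wild type, at 249.9 ± 123.0, lay below both mutants. Lsd-1 (perilipin 1, on lipid droplets) differed by -0.90 and Acsl (long-chain acyl-CoA synthetase) by 1.11. The calls of Lip3, Lsd-1 and Acsl were lost with 1 array left out, at adjusted p-values up to 0.077 (Dif replicate 3), 0.10 (Dif replicate 2) and 0.09 (dorsal replicate 1).

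Heat shock proteins were called higher in Dif mutants at 3 of 13 genes and lower at 0 (23.1%, beside 5.51% of all genes). Their median was 0.88. The small chaperone Hsp26 (153731_at) had 26643.8, 16333.1 and 83792.2 signal units in Dif mutants, against 882.7, 652.3 and 5274.1 in dorsal mutants and 1498 ± 405 in wild type with E. coli (SD, n = 3). The lowest Dif array was above the highest dorsal array, and the difference was 4.42 (SE 0.62, adjusted p = 5.28e-04). Hsp60A, the mitochondrial chaperonin, had 5942.2, 6527.8 and 8622.2 in Dif mutants and 2082.9, 2169.1 and 1716.6 in dorsal mutants (1.77, SE 0.32, adjusted p = 0.00401). Hsc70-3 (BiP, of the endoplasmic reticulum) differed by 1.03 (adjusted p = 0.0206). Hsp26 and Hsp60A kept their calls, and that of Hsc70-3 was lost without Dif replicate 3 (0.087).

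Other chaperones varied more between arrays. Hsp68 had 1413.1, 4878.3 and 30283.3 signal units in Dif mutants and 357.0, 275.2 and 2892.4 in dorsal mutants, and its difference of 2.98 missed the threshold (adjusted p = 0.0513). DnaJ-1 stood at 1.31 (adjusted p = 0.0724). The number of heat shock genes called ran from 2 to 6 with 1 array left out, with 6 without Dif replicate 1, 4 without dorsal replicate 3 and 2 without each of the other 4 arrays in turn. Without both Dif replicate 2 and dorsal replicate 3 it was 4. Probe set 149782_at, which the annotation pairs with 4 near-identical genes of the Hsp70 family and which therefore names none of them, was called at 4.77 (adjusted p = 0.0179), the largest rise over all probe sets. Its arrays overlapped, at 281.2, 40681.7 and 8464.1 in Dif mutants and 31.1, 22.1 and 465.6 in dorsal mutants. It was chosen for mention after its values were seen.

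**Figure D3:**
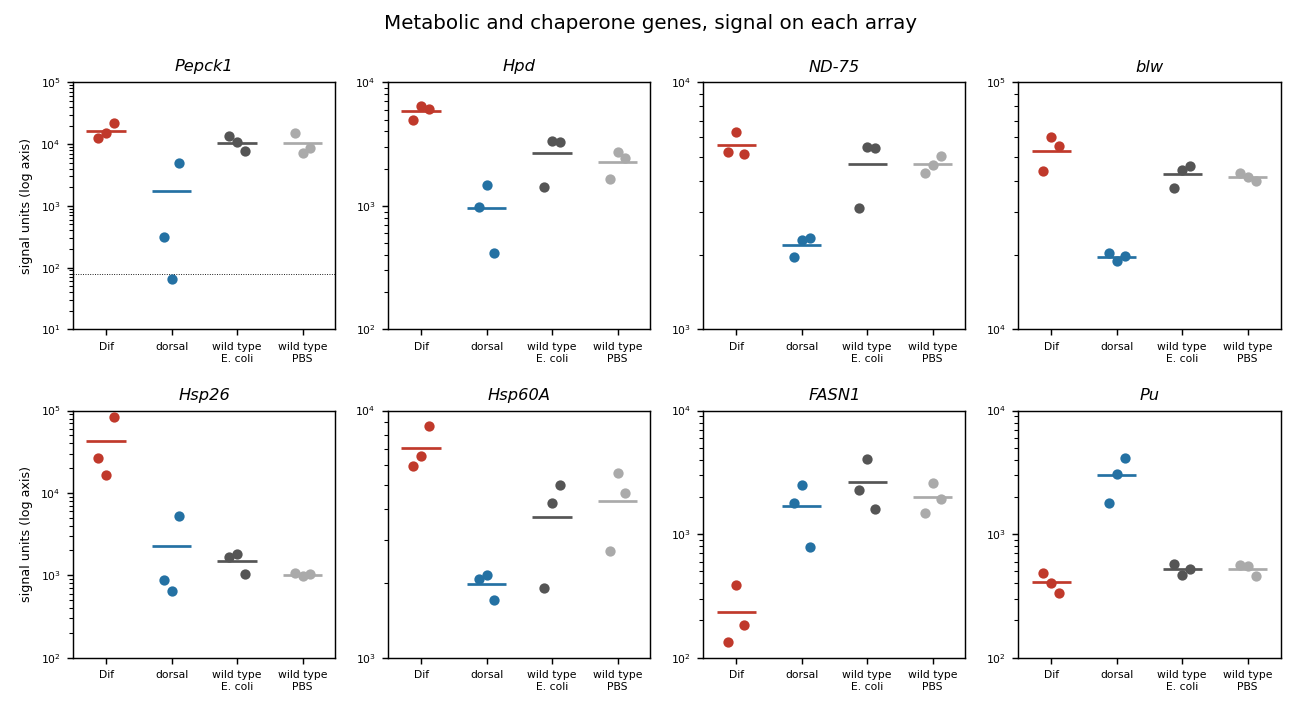
Signal of 8 metabolic and chaperone genes on each array (vertical log axis, signal units), with Dif mutant, dorsal mutant, wild type with E. coli and wild type with PBS from left to right; points are arrays, bars are means of 3 arrays and the dotted line is the pseudocount of 80. In Pepck1, Hpd, ND-75, blw, Hsp26 and Hsp60A every Dif array lies above every dorsal array, and in FASN1 and Pu every Dif array lies below.

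Cytochrome P450 genes, whose enzymes oxidise hormones, toxins and fatty acids, were called in both directions. Of 72 tested, 6 were higher and 7 lower in Dif mutants (18.1%, beside 5.51% of all genes), and the median was 0.04. Cyp4e3 (143781_at) had 563.4, 163.3 and 600.6 signal units in Dif mutants, against 28932.1, 24062.7 and 7583.4 in dorsal mutants and 1649 ± 168 in wild type with E. coli (SD, n = 3). The mutants lay on opposite sides of wild type, and the difference was -5.21 (SE 0.47, adjusted p = 1.33e-05). Cyp12a5, a mitochondrial P450, had 2761.1, 2733.2 and 1906.5 in Dif mutants and 429.7, 346.4 and 335.4 in dorsal mutants (2.49, SE 0.27, adjusted p = 6.74e-05). Cyp9b2 had 24942.8, 22987.1 and 25715.4 in Dif mutants and 9323.6, 8288.1 and 4973.6 in dorsal mutants (1.74, adjusted p = 3.34e-04).

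A neighbouring pair of P450 genes on chromosome arm 2R gave opposite calls. Cyp6a23 (147225_at) had 4635.8, 5768.4 and 8523.1 signal units in Dif mutants, against 932.3, 657.4 and 281.9 in dorsal mutants and 3907 ± 874 in wild type with E. coli (3.26, SE 0.34, adjusted p = 5.84e-05). Cyp6a17 (152313_at) had 40.7, 22.3 and 118.1 in Dif mutants, against 1056.6, 1121.6 and 757.6 in dorsal mutants and 413.7 ± 70.6 in wild type (-2.96, SE 0.41, adjusted p = 5.28e-04). The arrays did not overlap in either gene. These paralogs can share probe sequence, so the value of each gene alone is uncertain.

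Among the other P450 calls, Cyp4p1 (-2.14), Cyp6u1 (-1.62), Cyp28d1 (-1.43), Cyp4d8 (-1.27) and Cyp4e2 (-0.96) were lower, and Cyp6a8 (1.67), Cyp49a1 (1.67) and Cyp6d4 (1.26) were higher in Dif mutants. Cyp4e3, Cyp6a23, Cyp6a17, Cyp12a5, Cyp9b2, Cyp4p1 and Cyp6d4 kept their calls. With 1 array left out, adjusted p-values reached 0.14 for Cyp6a8, 0.091 for Cyp6u1 and 0.087 for Cyp49a1 and Cyp4d8 (all without Dif replicate 2), 0.093 for Cyp28d1 (dorsal replicate 2) and 0.10 for Cyp4e2 (dorsal replicate 1). The number of P450 genes called lower was 3 without Dif replicate 2, dorsal replicate 1 or dorsal replicate 2 and 10 without dorsal replicate 3. An additional probe set of Cyp49a1 gave -0.03.

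Conjugating enzymes were mostly higher where called. Of 30 glutathione S-transferases, 6 were called higher and 1 lower in Dif mutants (23.3%, beside 5.51% of all genes). Their median was 0.59. Mgstl, the microsomal transferase, had 15416.8, 30152.7 and 22285.2 signal units in Dif mutants and 10318.8, 9601.7 and 7800.7 in dorsal mutants (1.24, SE 0.22, adjusted p = 0.00325), and both of its other probe sets were called too. GstO1, of the omega class, had 150.1, 73.7 and 64.7 in Dif mutants and 650.5, 496.8 and 638.3 in dorsal mutants (-1.96, SE 0.37, adjusted p = 0.00558). These were the transferases that kept their calls. GstD7 (2.30), GstE8 (1.63), GstE5 (1.16), GstD9 (1.04) and GstO3 (0.75) lost theirs, and the count called higher was 1 without Dif replicate 2, 2 without Dif replicate 3, 2 without dorsal replicate 3, 3 without dorsal replicate 1 and 9 without Dif replicate 1. Without both Dif replicate 2 and dorsal replicate 3 it was 1. Single transferases of a family can share probe sequence and are uncertain.

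Among 26 UDP-glycosyltransferases, a list added after the data were seen, 4 were called higher and 0 lower in Dif mutants. Of all genes, 2.37% were called higher. Ugt37A3 had 5763.4, 3773.2 and 9714.8 signal units in Dif mutants and 1607.2, 1329.2 and 1060.3 in dorsal mutants (2.12, adjusted p = 0.00227, kept). Ugt37C2 differed by 1.79 (kept), Ugt37D1 by 2.18 and Ugt35C1 by 1.19, the last 2 not kept (up to 0.14, Dif replicate 3, and 0.18, dorsal replicate 2). Of 16 oxidative stress enzymes 1 was called, beside 5.51% of all genes. This was MsrA (methionine sulfoxide reductase) at -0.94, which no fit with 1 array left out called (up to 0.10, Dif replicate 2).

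Gut enzymes fell at 4 of 45 digestive genes and rose at 1 (11.1%, beside 5.51% of all genes), around a median of -0.10. LysP, a lysozyme, had 95, 303.0 and 193.2 signal units in Dif mutants, against 1993.7, 1892.9 and 1011.0 in dorsal mutants and 742.8 ± 237 in wild type with E. coli (SD, n = 3), a difference of -2.64 (SE 0.39, adjusted p = 7.64e-04). The serine protease Jon66Cii had 18054.5, 11164.7 and 6197.5 in Dif mutants and 70476.8, 65550.4 and 29444.3 in dorsal mutants (-2.25, adjusted p = 0.00161). The maltase Mal-A5 had 3035.3, 877.9 and 959.4 in Dif mutants and 7229.4, 7510.7 and 5085.4 in dorsal mutants (-2.18, adjusted p = 0.00373). In each of these 3 genes the arrays did not overlap, and the calls were kept. The trypsin genes alphaTry (-2.04, adjusted p = 0.0156) and kappaTry (1.79, adjusted p = 0.0302) lost their calls without Dif replicate 2, at 0.087 and 0.12. The number called lower was 8 without dorsal replicate 3 and 6 without both that array and Dif replicate 2. Summed over the 45 genes, the signal overlapped, at 1995940, 2074140 and 1829910 in Dif mutants and 2106960, 2029240 and 1547710 in dorsal mutants.

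Alkaline phosphatases, several of which are known from gut and renal tubules, were called at 4 of 12 genes (33.3%, beside 5.51% of all genes). Alp1 had 2499.8, 1070.7 and 1269.9 signal units in Dif mutants and 4961.3, 5387.3 and 10446.0 in dorsal mutants (-2.06, SE 0.43, adjusted p = 0.0111). Alp8 had 11495.4, 11627.6 and 6809.7 in Dif mutants and 4018.9, 4458.6 and 3029.4 in dorsal mutants (1.34, SE 0.31, adjusted p = 0.0197), and wild type with E. coli stood below both at 745.6 ± 245. Alp5 (1.21) and Alp7 (1.11) were higher as well. The arrays of Alp7 overlapped, with 10839.9 in Dif replicate 3 and 11296.7 in dorsal replicate 3. No call was kept, with adjusted p-values up to 0.063 for Alp1, 0.09 for Alp8 and 0.091 for Alp5 without Dif replicate 2 and 0.16 for Alp7 without dorsal replicate 1. Among 19 esterases and lipid-binding proteins, alpha-Est5 was higher at 1.21 (adjusted p = 0.0103, kept) and Npc2f, of the sterol-binding Npc2 family, lower at -0.99 (adjusted p = 0.0195), a call that was lost without dorsal replicate 2 (0.08).

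Cuticle proteins were called higher at 5 of 89 genes and lower at 2 (7.87%, beside 5.51% of all genes), with a median of 0.41. Every Dif array lay above every dorsal array in 21 and below in 5 of the 89, where 24.6% of all genes did not overlap. Cpr47Ec had 9473.6, 15254.3 and 9543.9 signal units in Dif mutants and 2935.5, 3787.1 and 442.6 in dorsal mutants (2.62, SE 0.52, adjusted p = 0.00814, kept). Ccp84Ag (1.97), Cpr67Fa2 (1.77), Cpr5C (1.52) and Lcp9 (0.84) were also higher, and the chitinase gene Cht10 (-2.52) and Cpr67B (-0.82) were lower. Dorsal replicate 3 was the lowest of the 6 arrays in Cpr47Ec, Ccp84Ag and Cpr67Fa2 and the highest in Cht10 and Cpr67B. Apart from Cpr47Ec none of these calls was kept: adjusted p-values reached 0.071 for Lcp9 without dorsal replicate 1 and, without Dif replicate 2, 0.095 for Ccp84Ag, 0.07 for Cpr67Fa2, 0.08 for Cpr5C, 0.087 for Cht10 and 0.19 for Cpr67B. The other probe sets of Cht10 gave 0.50 and -0.48. Cpr47Eg had 70012.4, 109390 and 77797.4 in Dif mutants and 22276.4, 50017.3 and 773.8 in dorsal mutants, without a call (3.10, adjusted p = 0.0684).

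**Figure D4:**
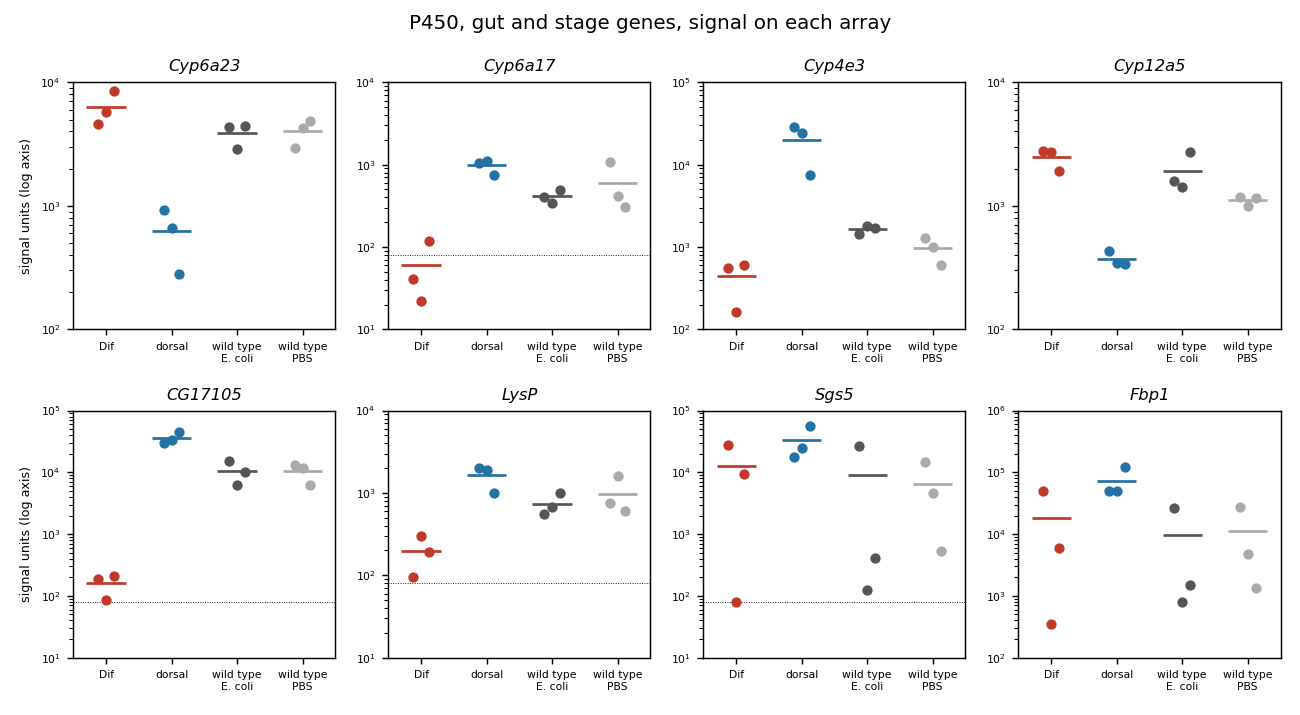
Signal of 4 P450 genes, CG17105, the lysozyme gene LysP, the glue gene Sgs5 and the fat body gene Fbp1 on each array (vertical log axis, signal units), with Dif mutant, dorsal mutant, wild type with E. coli and wild type with PBS from left to right; points are arrays, bars are means of 3 arrays and the dotted line is the pseudocount of 80. Cyp6a23 and Cyp12a5 are higher in Dif mutants, Cyp6a17, Cyp4e3, CG17105 and LysP are lower, and Dif replicate 2, the middle point of its group, is the lowest array in Sgs5 and Fbp1.

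The proteasome list had 2 of 33 subunits called lower in Dif mutants and 0 higher (6.06%), near the 5.51% called among all genes. Rpt5, an ATPase of the regulatory particle, had 4657.7, 3602.1 and 3919.1 signal units in Dif mutants and 6948.6, 7494.7 and 7323.7 in dorsal mutants (-0.83, adjusted p = 0.0113). Prosbeta7, of the core particle, differed by -0.82 (adjusted p = 0.0119). Both missed the threshold without Dif replicate 2, at 0.062 for Rpt5 and 0.07 for Prosbeta7. Every Dif array also lay below every dorsal array, without a call, in Prosbeta3, Prosalpha6, Prosalpha5, Prosbeta5, Prosalpha7, Prosbeta6 and Rpn6. The reverse held in Prosbeta5R1 and Prosalpha4T1, also without a call, where 24.6% of all genes did not overlap in either direction. Of the 32 lists first chosen, 19 had a called member and 13 had none. Beside those already given, limma called 0 genes in 6 lists. These were 12 larval serum and fat body proteins (4 at an unadjusted p under 0.05), 10 insulin and FOXO genes (1), 18 testis transcripts (3), 9 iron genes (0), 8 nervous system markers (0) and 17 imaginal disc and cell cycle markers (2). Over all probe sets tested, 2357 of 11427 had an unadjusted p under 0.05. Testis transcripts had a median of -0.45, and in 6 of the 18 every Dif array lay below every dorsal array, where 24.6% of all genes did not overlap in either direction.

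**Figure D5:**
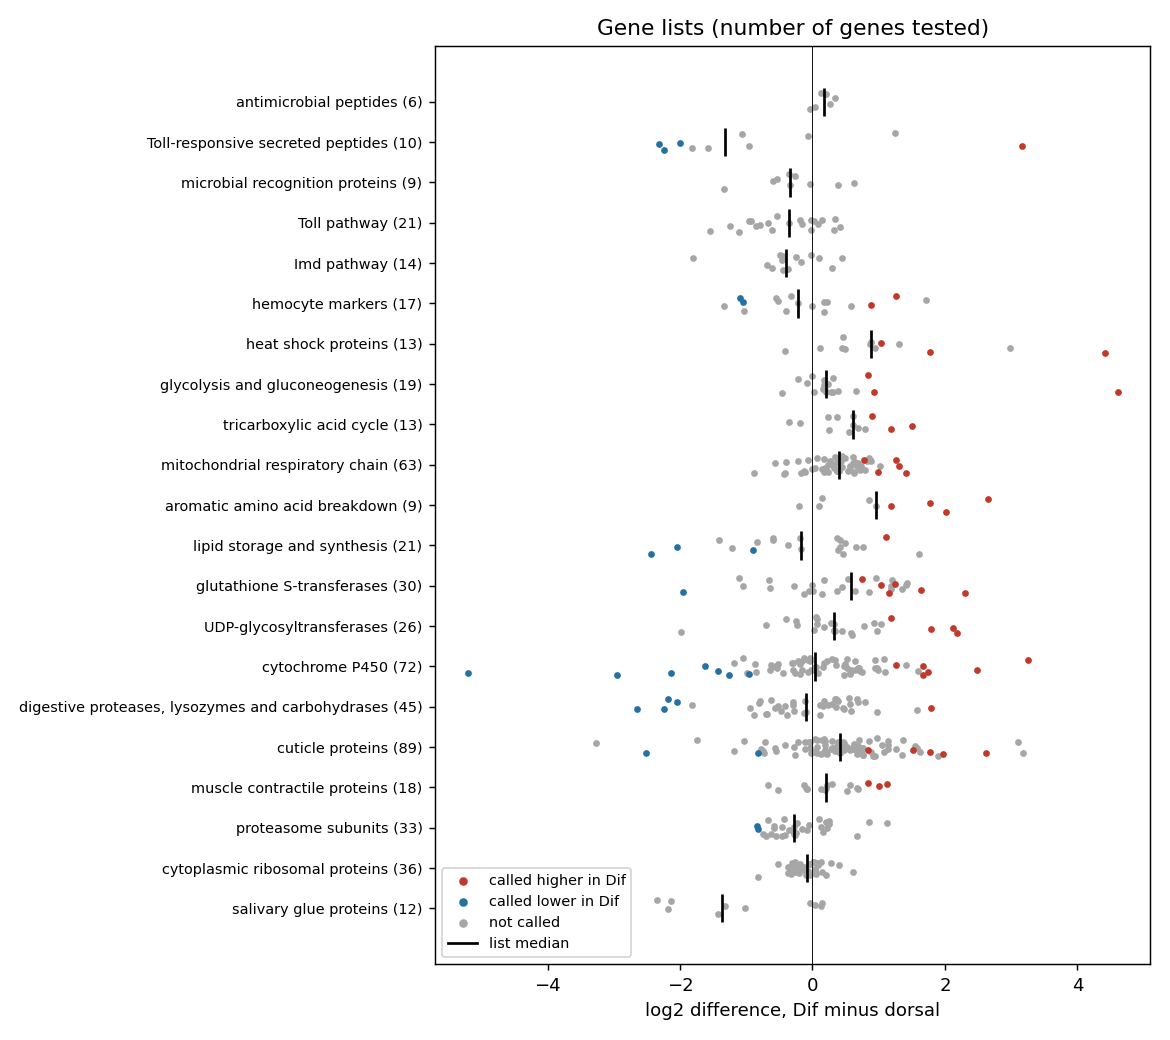
Log2 difference of Dif mutants minus dorsal mutants (horizontal axis) for each tested gene of 21 lists, with the number tested in parentheses; red points are called higher in Dif mutants, blue points called lower, grey points not called, and black bars mark list medians. Respiratory chain, tricarboxylic acid cycle and heat shock genes have calls on the higher side alone, P450 genes on both sides, and antimicrobial peptides none.

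The largest called difference of all was a fall at CG17105, a gene without an assigned role in the files used here. Its probe set (146179_at) had 189.9, 86.4 and 209.9 signal units in Dif mutants, against 29903.6, 32900.1 and 45679.4 in dorsal mutants and 10508 ± 4431 in wild type with E. coli (SD, n = 3). The Dif arrays lay near the filter minimum of 160, and the log2 difference was -7.24 (SE 0.51, adjusted p = 5.77e-07, kept). CG13135 had 213.1, 74.9 and 160.2 in Dif mutants and 13849.4, 8228.5 and 2306.1 in dorsal mutants (-4.88, SE 1.01, adjusted p = 0.00999). Wild type lay near the dorsal mutants in this gene, at 6544 ± 3468. CG6337 was low in Dif mutants as well, at 96.3, 91.7 and 75.6, with 1419.0, 1060.5 and 967.1 in dorsal mutants and 994.6 ± 237.6 in wild type (-2.86, SE 0.28, adjusted p = 2.77e-05, kept). CG13461 showed the same order, at -2.89 (adjusted p = 4.16e-04, kept). The call of CG13135 was lost without dorsal replicate 1 (0.052).

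In another set of falls the dorsal mutants had means above those of wild type and Dif mutants. CG7916 had 3474.5, 2240.5 and 3182.7 signal units in Dif mutants, against 31345.2, 25749.5 and 12345.0 in dorsal mutants and 4214 ± 1367 in wild type with E. coli (-2.85, SE 0.32, adjusted p = 8.38e-05). Ag5r, of the antigen 5 family of secreted proteins, had 985.4, 1379.6 and 2366.1 in Dif mutants and 26503.5, 24372.3 and 6016.0 in dorsal mutants (-3.34, SE 0.43, adjusted p = 2.59e-04). CG3819 differed by -4.41, CG14852 by -3.30, CG17134 by -3.19 and CG4757 by -3.09. These 6 calls were kept, with dorsal replicate 3 the lowest dorsal array in each. CG11854 (-4.91) and CG7606 (-3.29) were lower in Dif mutants too, but in both dorsal replicate 3 was the highest dorsal array and their calls were lost without Dif replicate 2, at adjusted p-values of 0.087 and 0.13.

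Among the rises, dorsal mutants often lay below wild type. Scp2, a sarcoplasmic calcium-binding protein, had 3369.4, 4096.8 and 4296.1 signal units in Dif mutants, against 29.1, 80.4 and 1502.1 in dorsal mutants and 6988 ± 1999 in wild type with E. coli (3.72, SE 0.65, adjusted p = 0.00325, kept). CG11334 had 1442.1, 1495.2 and 1743.9 in Dif mutants and 77.8, 38.8 and 336.6 in dorsal mutants, with 906.1 ± 322.3 in wild type (3.04, SE 0.38, adjusted p = 2.35e-04, kept). CG13230 differed by 2.32 (adjusted p = 7.64e-04) and CG10073 by 3.08 (adjusted p = 1.42e-04), both kept. CG11893 was higher in Dif mutants than in either other group, at 607.8, 669.7 and 1152.7 in Dif mutants, 7.6, 102.1 and 29.4 in dorsal mutants and 118.5 ± 8.0 in wild type (2.84, SE 0.38, adjusted p = 3.78e-04, kept). CG8562 (2.39, adjusted p = 0.0113) lost its call without Dif replicate 2 (0.060). The G protein-coupled receptor gene smog was higher at 2.35 (adjusted p = 0.00175, kept), but its other probe set gave 0.38.

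CG11350, a rise, depended on more than 1 array. It had 85158.1, 118200 and 85760.2 signal units in Dif mutants and 26113.5, 37449.1 and 536.0 in dorsal mutants (3.49, SE 0.98, adjusted p = 0.0471). Without dorsal replicate 3 the difference was 1.60, and without Dif replicate 2 the call was lost (0.14). The call remained in 3 of the 6 fits with 1 array left out.

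Probe sets without a gene name added 24 rises and 18 falls. The largest without overlap were 143672_at at 2.15 and 152083_at at 2.11 among the rises and 153604_at at -2.06 and 145082_at at -1.89 among the falls, and of these 152083_at was kept. It had 8119.9, 16004.1 and 10857.0 signal units in Dif mutants and 2842.4, 2774.0 and 2051.3 in dorsal mutants. Probe set 147802_at, which the annotation pairs with more than 1 gene and which was chosen after its values were seen, had 388.7, 201.7 and 971.9 in Dif mutants and 66109.3, 68482.7 and 10209.2 in dorsal mutants (-6.12, adjusted p = 6.74e-05).

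The response to bacteria was examined through probe sets called in other contrasts of the same fit, whose group means come from arrays outside the Dif and dorsal groups. All 15 arrays share the estimate of the spread, so the calls of these contrasts are not independent of one another. Between wild type with E. coli and with PBS, 17 were called higher and 1 lower (0.158% of all tested). Of these 17, 1 was called between the mutants (5.88%, beside 5.18% of all probe sets), their median difference was -0.41 and 6 were positive. The called one, CG42562, had 805.1, 1064.0 and 926.8 signal units in Dif mutants, against 133.5, 145.7 and 147.3 in dorsal mutants, 2325.7 in wild type with E. coli and 771.3 with PBS (2.18, adjusted p = 2.35e-04). The median of the 17 set against wild type with E. coli was -3.07 in Dif mutants and -2.71 in dorsal mutants, in comparisons that share the wild type arrays. The 17 were chosen for high values in those same wild type arrays, which by itself pulls these medians down. Nothing is therefore read from their sign. Of the 17, 16 gave no call between the mutants, where 5.18% of all probe sets were called.

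Probe sets that differed in Relish mutants are given as counts without a test. Of 130 called lower in Relish mutants than in wild type with E. coli, 11 were higher and 14 lower in Dif mutants than in dorsal mutants (19.2%, beside 5.18% of all), with a median of -0.27. BomBc2, BomS5 and Jon66Cii were among the 14, and CG42562 and Cpr67Fa2 were among the 11. Of 85 called higher in Relish mutants, 6 were higher and 9 lower (17.6%), with a median of 0.04. In Relish mutants against wild type 1.88% of probe sets were called. The calls went both ways in both sets. Since the spread is shared, a probe set of low spread can be called in both contrasts, and nothing is read from these shares. Across the E. coli and Relish-lower sets 25 probe sets were called, and without Dif replicate 2, dorsal replicate 1 or dorsal replicate 2 that number was 14, 12 or 15.

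By chromosome arm, calls were 6.89% of tested genes on 2R, 5.54% on 2L, 5.23% on 3L, 5.13% on 3R, 4.74% on X and 4.65% of the 43 tested on the fourth chromosome. Dif and dl lie near each other on 2L with 2 protein-coding genes between them. Within 20 protein-coding genes on either side, 24 genes were tested and 1 was called, Lamtor3, a subunit of the Ragulator complex, at -0.91 (adjusted p = 0.0264). The median over these 24 was -0.11. Called genes had a called neighbour in 61 of 453 cases (13.5%), beside 630 of 7811 genes that were not called (8.07%). There were 32 neighbouring pairs of called genes, 24 in the same direction, such as BomT2 with BomS5 and CG8087 with CG14852, and 8 in opposite directions, such as Cyp6a17 with Cyp6a23.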

How the data were processed

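RNA of whole larvae had been hybridised to the first Affymetrix genome array for Drosophila. The deposited values are intensities, on a linear scale with 1 value per probe set, which the authors made with Microarray Suite 5.0 at default settings with global scaling, per the labels; the submitters' processing notes name MAS5. Trimmed means (2% off each end) were 800.2 to 800.25 on every array. Sequencing depth does not apply, and the number of arrays limits the precision.

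From these, log2(signal + 80) was computed for probe sets with a signal of at least 160 on at least 3 of 15 arrays, which removed 2539 of 13966 and left out 44 controls. With limma 3.58.1 in R 4.3.3, group means were fitted over all 15 arrays (lmFit, eBayes with trend, 10 residual degrees of freedom). Tests were two-sided, with Benjamini-Hochberg adjustment over all 11427 probe sets, and the method was tested on simulated data. All 6 Dif and dorsal arrays came in by source name. Gene names came from the platform annotation, checked by Entrez identifier against RefSeq (Release 6): 12443 probe sets had 1 symbol, 327 several and 1196 none, and 12394 matched. A gene is represented by its probe set of highest mean signal. No coordinates are given, because no build is given for the design in the sources used here.

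Named genes were Rel, Dif and dl, the 15 largest rises and 15 largest falls called without overlap, up to 2 unnamed probe sets each way, every called list member and up to 4 members per list of largest difference, of which the text gives some. Members and lists were chosen with earlier results of these data known, and 3 lists were added after seeing the data. The planned search of promoters for motifs was not run, as promoter sequence was not used here.

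The numbers of the source names do not pair the arrays: deviations of same-numbered Dif and dorsal arrays correlated at -0.09, 0.04 and -0.05. Alternatives were the pseudocount, filters, normalization, variance trend, arrays fitted, array weights, averaging, replicate block and leaving out arrays.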

Additional observations from a re-analysis of the deposited data

How the results depend on the processing

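The 592 calls became 378 without the variance trend, 161 with only the 6 arrays in the fit and 152 after averaging arrays that share a title number. The number of the source name as a replicate block gave 676 with all 15 arrays and 102 with 6; since the numbers do not pair the arrays, these are given as counts. With 1 array left out the number lay between 228 and 604, and without both Dif replicate 2 and dorsal replicate 3, chosen after seeing the data, it was 335. Of the 592 calls, between 210 and 430 remained with 1 array left out and 244 without both. All 152 calls of the averaged fit were among the 592 (25.7% of them), as were 158 of the 161. The 71 calls in the 32 lists first chosen, without the 3 added ones, numbered 42 without the trend, 25 with 6 arrays, 29 averaged and 25 with the block on 6 arrays, and between 27 and 89 with 1 array left out. The 25 calls among probe sets that respond to bacteria or are lower in Relish mutants numbered 9, 12 and 6 with 6 arrays, averaged and blocked on 6 arrays, and between 12 and 22 with 1 array left out. These fits have fewer residual degrees of freedom or fewer arrays, and the cause of the drop without the trend was not tested. Other pseudocounts, filters, scalings and array weights kept these counts within 1.5 times. Rel, Dif and dl were called in no fit. Of 107 called genes and probe sets named by rule, 49 kept the call with each of the 6 arrays left out, 32 did so in every fit, and 0 changed direction. The planned promoter motif search was not run.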
